A study of Caenorhabditis elegans with 6 samples.

Results

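The mitochondrial ribosomal proteins of Caenorhabditis elegans were described in whole L4 larvae, the last larval stage, of 2 genotypes. Members were the probe sets whose platform annotation named exactly 1 gene with a symbol starting mrpl- or mrps-. This gave 59 of 17118 genes with a probe set of their own, and 65 of 22548 probe sets that were not array controls, with 38 probe sets of 34 large-subunit genes and 27 of 25 small-subunit genes. All 59 genes matched the RefSeq gene table of assembly WBcel235 under the same symbol. A further 12 genes of that name in the table were not analysed here. The groups were wild-type and zip-3(gk3164) worms, an allele of the bZIP transcription factor gene zip-3, with 3 Affymetrix arrays each that the labels call biological replicates. All worms were bleach-synchronized, grown in liquid and fed control RNAi bacteria, so the groups shared everything the labels give except genotype. The comparison asked which transcripts differed between mutant and wild-type under these conditions.

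Mitochondria carry their own ribosome, which makes the few proteins encoded by mitochondrial DNA, all of them parts of the respiratory chain and ATP synthase in animals. Its protein subunits are encoded in the nucleus, made in the cytosol and imported, and they assemble on RNAs transcribed from mitochondrial DNA. In worms, knockdown of mitoribosomal genes such as mrps-5 is known to activate the mitochondrial unfolded protein response, the program of mitochondrial chaperones and proteases that ZIP-3 has been linked to repressing.

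Values are linear MAS5 signals of probe sets, scaled by the authors to a common trimmed mean, and array medians ran from 123.9 to 139.1. Whole-animal RNA gave signal for markers of intestine, muscle, neurons and germline, for example vha-6 between 4629.97 and 6158, unc-54 between 10405 and 17554 and glh-1 between 3931 and 7152. The brighter zip-3 probe set read 1204, 1113 and 939.6 in wild-type and 385, 459 and 234 in the mutant, so all mutant arrays lay below the wild-type arrays. Its log2 difference was -1.64 ± 0.28 (SE) and did not pass the threshold (limma adjusted p = 0.0717). Leaving out single arrays gave -1.85 to -1.36. Under 16 alternative settings, listed below, it passed in 2, with limma adjusted p from 0.0016 to 0.30. The dimmer zip-3 probe set gave -0.51 ± 0.30, with overlapping groups. Sperm markers summed to less in every mutant array than in any wild-type array, with mutant array 3 closest to wild-type. The summed signal of 42 sperm genes ran from 585334 to 660826 in wild-type and was 274463, 173122 and 513844 in mutant arrays 1, 2 and 3. Precision is limited by having 3 arrays per genotype.

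No mitoribosomal transcript differed between genotypes past the threshold, and most estimates lay close to 0. Of the 65 probe sets, 63 were bright enough to be tested, for 57 genes, and 0 passed an adjusted p of 0.05 in limma, against 18 of all 13529 probe sets tested, or 0.133% (0.118% higher and 0.0148% lower). At an unadjusted limma p under 0.05 there were 2 members, or 3.17%, both higher, where 19.4% of all probe sets tested had such a p, 10.1% higher and 9.27% lower. The median log2 difference, mutant minus wild-type, was 0.03 over the members and 0.04 over all probe sets tested, with 38 members above 0 and 25 below. The quartiles of the members were -0.07 and 0.17, and those of all probe sets -0.25 and 0.33. A missed threshold does not show equal levels, so the intervals were counted. The 95% interval of the difference lay within 2-fold in either direction for 60 of 63 members, or 95.2%, and for 55.4% of all probe sets tested. Members were also bright, with a median mean signal of 1099.9 against 387 for all probe sets tested, and 60 of 63 lay above the latter. Related lists had like shares of such intervals, 99.1% for the cytosolic ribosome and 91.4% for the respiratory chain. The exceptions among the members were mrpl-15 and the dimmest probe sets of mrpl-38 and mrpl-44.

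**Figure D1:**
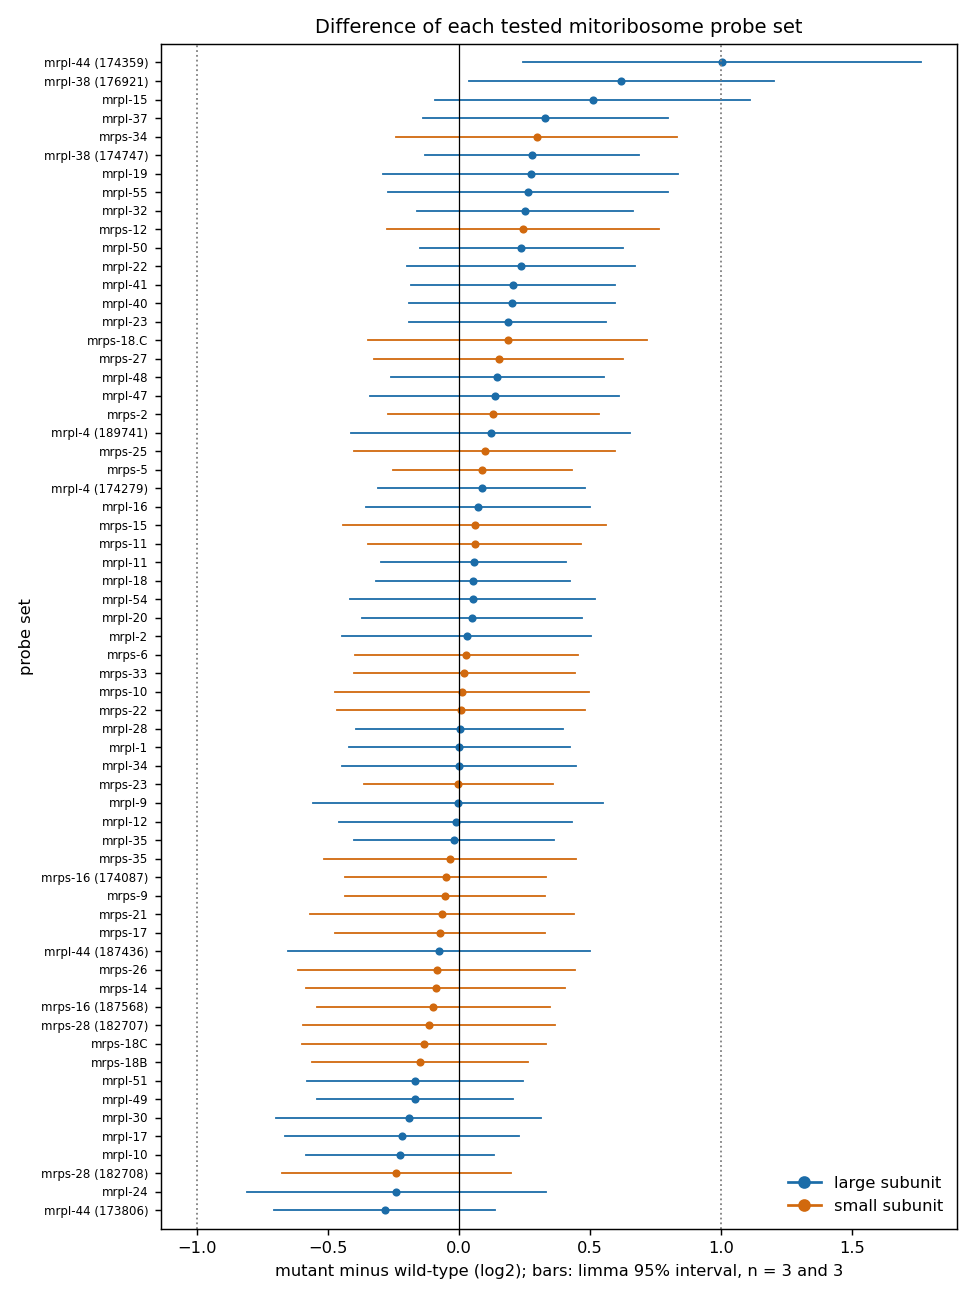
Mutant minus wild-type difference on the log2 scale for each of the 63 tested mitoribosome probe sets, with points for the estimate, bars for the limma 95% interval (3 arrays per genotype) and colours for the subunit. Dotted lines mark a 2-fold difference; 60 intervals lie inside them, and the highest estimate, 1.00, belongs to a dim probe set of mrpl-44.

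In 6 of 63 members, or 9.52%, the groups did not overlap, with all mutant arrays above wild-type in 5 and below in 1. Over all probe sets tested 22.9% did not overlap, 14.1% with the mutant above and 8.8% below. An exact two-sided permutation test of a single gene cannot go below 0.10 with 3 arrays against 3. The median size of the difference without regard to sign was 0.11 for the members and 0.30 for all probe sets tested. Related lists were as small, at 0.11 for the respiratory chain and 0.07 for the cytosolic ribosome.

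**Figure D2:**
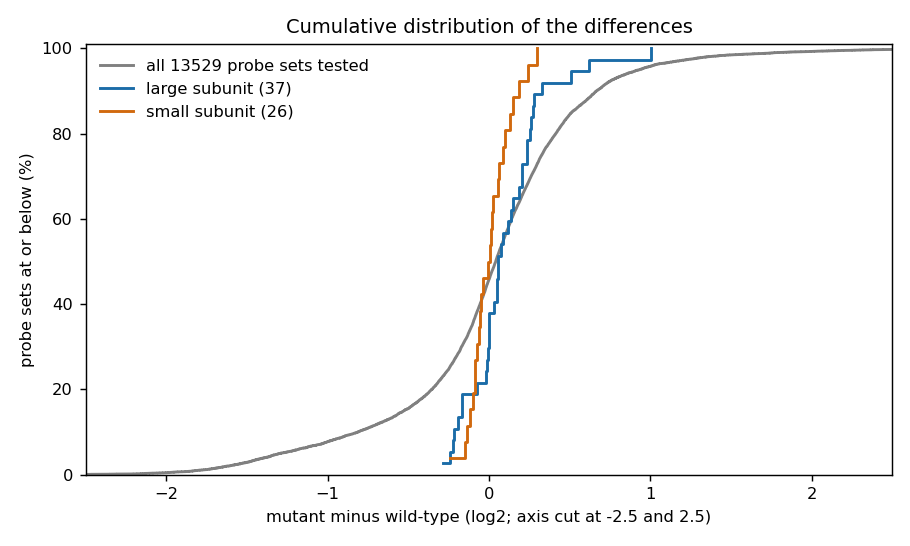
Cumulative share of probe sets (percent) by mutant minus wild-type difference (log2) for all 13529 tested probe sets and for the large and small subunit. The subunit curves climb within a narrow range around 0, from -0.28 to 1.00 for the large and from -0.24 to 0.30 for the small subunit, while the curve of all probe sets has long tails on both sides.

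The small subunit, which binds the messenger RNA and decodes it, spanned a narrower range than the large subunit, -0.24 to 0.30 against -0.28 to 1.00. The highest large-subunit values, 1.00 and 0.62, came from the dimmest probe sets of mrpl-44 and mrpl-38, whose brightest gave -0.28 and 0.28. Quartiles were -0.08 and 0.08 for the small and -0.01 and 0.24 for the large subunit. The 26 tested small-subunit probe sets split evenly, 13 above 0 and 13 below, with a median of 0.00. No small-subunit probe set had an unadjusted limma p under 0.05, against 19.4% of all probe sets tested. Groups without overlap numbered 0, against 22.9%, and all 26 intervals lay within 2-fold, against 55.4%. The cytosolic ribosome list had like shares, at 0%, 4.55% and 99.1%. mrps-5, whose knockdown lengthens worm life, read 2242, 2199 and 2204 in wild-type and 2408, 2524 and 2151 in the mutant. The wild-type arrays of mrps-5 lay within a few percent of one another and inside the wider span of the mutant arrays. Its mean signal was 2215 ± 23.5 and 2361 ± 191 (SD, n = 3 each), a log2 difference of 0.09 ± 0.15 (SE; limma adjusted p = 0.787), with an interval from -0.25 to 0.43.

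mrps-34, which encodes a subunit with no bacterial counterpart, had the highest difference of the small subunit. It read 1190.2, 1279.7 and 1162 in wild-type and 1227, 2067 and 1289.6 in the mutant, a difference of 0.30 ± 0.23 (limma adjusted p = 0.524). Its height rested on mutant array 2, as without that array the difference was 0.06. mrps-12, the counterpart of the bacterial decoding-centre protein S12, had a like pattern. Its signals were 1969.8, 1712 and 1899.6 in wild-type and 1729, 2976 and 2063 in the mutant, so only mutant arrays 2 and 3 exceeded the wild-type range, and it is named here after its values were seen.

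By moderated statistic, the lower end of the small subunit held mrps-28, mrps-18B, mrps-18C, mrps-14 and mrps-17. The brighter mrps-28 probe set read 982, 1090.2 and 1168 in wild-type and 763, 1037 and 961 in the mutant, a difference of -0.24 ± 0.19 (limma adjusted p = 0.527). In mrps-28 mutant arrays 1 and 3 lay below all wild-type arrays and mutant array 2 lay among them, and the dimmer probe set gave -0.11 ± 0.21. mrps-18B and mrps-18C, related genes for a protein of the S18 family, gave -0.15 ± 0.18 and -0.13 ± 0.20. Another member of that family, mrps-18.C, stood at 0.19 ± 0.23, and it is outside the rule for named genes. mrps-14 differed by -0.09 ± 0.21 and mrps-17 by -0.07 ± 0.17. mrps-26, outside the rule for named genes, lay between them by difference, at -0.09 ± 0.23. The brighter and dimmer probe sets of mrps-16 gave -0.05 ± 0.16 and -0.10 ± 0.19, and groups overlapped for all of these.

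The large subunit forms the peptide bond and holds the exit tunnel, and in mammals it carries many proteins that bacterial ribosomes lack. Of its 37 tested probe sets 25 were above 0 and 12 below, with a median of 0.06. All 6 member probe sets whose groups did not overlap belonged to the large subunit, 5 with the mutant above and 1 below. That was 16.2% of its tested probe sets, below the 22.9% of all probe sets tested (14.1% above and 8.8% below). The 5 included both mrpl-38 probe sets and the dimmest of mrpl-44. The difference between the subunits was not tested. By human nomenclature, the 23 tested probe sets of large-subunit proteins with a bacterial counterpart had a median of 0.05, with 15 of 23 above 0. The 13 of proteins without a counterpart had a median of 0.20, with 9 of 13 above 0, and stood for 10 genes because mrpl-44 and mrpl-38 have several probe sets. In the small subunit, the corresponding medians were -0.02 over 16 probe sets with a counterpart and 0.01 over 8 without, and mrpl-55 and mrps-28 were not placed in either class.

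mrpl-38, which in mammals encodes a protein of the central protuberance at the top of the large subunit, was higher in every mutant array at both of its probe sets. The brighter read 952, 1042 and 1081 in wild-type and 1181, 1451 and 1118 in the mutant, a difference of 0.28 ± 0.18 (limma adjusted p = 0.424). The dimmer read 354, 303 and 355 and then 419, 459 and 716. Its difference was 0.62 ± 0.25, with an unadjusted limma p of 0.0400 and an adjusted p of 0.238. Without mutant array 3 it was 0.38, with an unadjusted limma p of 0.0893, and the brighter probe set was 0.17 without mutant array 2. Mutant array 3 was the highest array of the dimmer mrpl-38 probe set and the lowest mutant array of the brighter, so the probe sets agreed in direction and differed in which array led.

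mrpl-44, whose product in mammals is related to ribonuclease III and has no bacterial ribosomal counterpart, gave conflicting probe sets. The dimmest read 126, 132 and 208 in wild-type and 233, 445 and 271 in the mutant. All mutant arrays exceeded the wild-type arrays there, a difference of 1.00 ± 0.33 with an unadjusted limma p of 0.0162 and an adjusted p of 0.188. The brightest read 3553, 3583 and 4305 in wild-type and 3210.3, 3649 and 2589 in the mutant, a difference of -0.28 ± 0.18 (limma adjusted p = 0.426) in the opposite direction, and -0.15 without mutant array 3. The remaining mrpl-44 probe set, of intermediate signal, gave -0.08 ± 0.25. The interval of the dimmest, from 0.25 to 1.76, did not reach that of the brightest, which ended at 0.14. That of the intermediate probe set, from -0.65 to 0.50, overlapped both. Where along the transcript each probe set lies is not given in the sources used here, and the brightest and the intermediate probe set carry a suffix for sequence shared between transcripts.

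**Figure D3:**
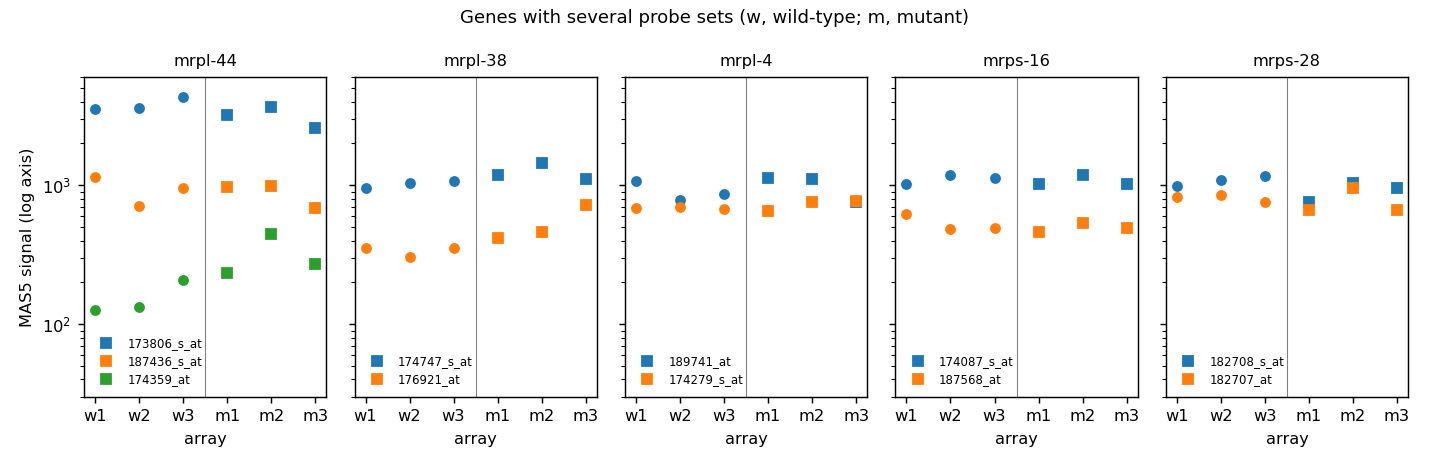
MAS5 signal (log axis) in each array for the 5 genes with several probe sets, with circles for wild-type and squares for mutant arrays, each colour a probe set. The dimmest mrpl-44 probe set, between 126 and 445, is higher in all mutant arrays while the brightest, between 2589 and 4305, is not; for mrpl-4 in mutant array 3 the markers at 753 and 773 overlie each other.

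mrpl-15 and mrpl-37 had the next highest differences. mrpl-15, the counterpart of bacterial L15, read 1703, 1121 and 1074 in wild-type and 1844, 2286 and 1403 in the mutant. Its groups overlapped because wild-type array 1 exceeded mutant array 3, and the difference was 0.51 ± 0.26 (limma adjusted p = 0.326). Leaving out single arrays gave 0.34 to 0.72, lowest without mutant array 2 and highest without wild-type array 1. mrpl-37, a mitochondria-specific subunit whose knockdown is known to lengthen worm life, read 599, 724 and 566 and then 904, 810.2 and 664, a difference of 0.33 ± 0.20 (limma adjusted p = 0.408). In mrpl-37 mutant array 3 lay below wild-type array 2 and the other mutant arrays lay above all wild-type arrays.

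The remaining genes at the upper end showed small differences, from 0.19 to 0.27. mrpl-32 read 1377, 1422 and 1457 in wild-type and 1476, 2038 and 1604 in the mutant, without overlap, a difference of 0.25 ± 0.18 (limma adjusted p = 0.473). mrpl-23, whose bacterial counterpart L23 lies at the mouth of the exit tunnel, read 1005, 899.7 and 904 and then 1145, 1008 and 1042, also without overlap, a difference of 0.19 ± 0.16. For mrpl-23 the highest wild-type array and the lowest mutant array were nearly equal. mrpl-22, another exit-tunnel protein, stood at 0.24 ± 0.19, mrpl-50 at 0.24 ± 0.17, mrpl-41 at 0.21 ± 0.17 and mrpl-40 at 0.20 ± 0.17. mrpl-19 at 0.27 ± 0.24 and mrpl-55 at 0.26 ± 0.23 had wide intervals. mrpl-19 without mutant array 2 was at 0.09 and without mutant array 3 at 0.51. Leaving out mutant array 2 also gave 0.07 for mrpl-55, 0.12 for mrpl-32 and 0.12 for mrpl-22.

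mrpl-10 was the only member with every mutant array below every wild-type array. It encodes the counterpart of bacterial L10, the base of the stalk that recruits translation factors. Its signals were 1191, 1125 and 1117 in wild-type and 966, 952 and 1018 in the mutant, with means of 1145 ± 40.5 and 979 ± 34.9 (SD, n = 3 each). The difference was -0.23 ± 0.15 and did not pass (limma adjusted p = 0.460), and leaving out single arrays gave -0.25 to -0.20. Other stalk proteins differed by less. mrpl-11 read 1748, 1502 and 1689 in wild-type and 1769, 1697 and 1659 in the mutant, and mrpl-12, whose bacterial counterpart is L7/L12, read 1646, 1528 and 1584 and then 1486, 1967 and 1326. Both are named here after their values were seen, and their groups overlapped.

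The other large-subunit genes at the lower end were mrpl-24, mrpl-17, mrpl-30, mrpl-49 and mrpl-51. mrpl-24 read 537, 554 and 567 in wild-type and 535, 574 and 333 in the mutant, so its difference of -0.24 ± 0.24 rested on mutant array 3, and it was 0.0053 without that array. mrpl-30 behaved alike, at 832, 850.4 and 776 in wild-type and 789.8, 855 and 544 in the mutant. Its difference was -0.19 ± 0.22 and was 0.0052 without mutant array 3. mrpl-17 gave -0.22 ± 0.19 (-0.11 without mutant array 3), mrpl-49 -0.17 ± 0.16 and mrpl-51 -0.17 ± 0.18. The groups overlapped in each of these genes.

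mrpl-1 and mrpl-2, like mrps-5 genes whose knockdown is known to affect worm lifespan, had differences close to 0. mrpl-1 read 1422, 1492 and 1589 in wild-type and 1409, 1823 and 1315 in the mutant, a difference of 0.00 ± 0.18 with an interval from -0.42 to 0.42. mrpl-2 read 1322, 1134 and 1362 and then 1132, 1647 and 1162, a difference of 0.03 ± 0.20. In both genes mutant array 2 was the highest of the 6 arrays, and without it the differences were -0.14 and -0.15. mrpl-4, the counterpart of an exit-tunnel protein, gave 0.12 ± 0.23 at its brighter and 0.09 ± 0.17 at its dimmer probe set. mrpl-4 and mrps-2 are next to each other among the protein-coding genes of the WBcel235 table, the only such pair of members, and mrps-2 read 764, 708 and 660.3 in wild-type and 724, 860.1 and 753 in the mutant. mrps-2 is named for its position, outside the rule for named genes.

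The members that were not tested were dim. mrpl-45, which in mammals lies near the exit tunnel at the inner membrane, read 27.8, 33.7 and 24.9 in wild-type and 17.98, 46.8 and 39.2 in the mutant. mrps-31 read 26.7, 16.9 and 14.8 and then 33.9, 40.9 and 1.14. Both lay under the signal limit of 68.7 in every array and no difference is given for them.

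Mutant arrays 2 and 3 lay on opposite sides of wild-type, and most members followed the same order. Relative to each probe set's wild-type mean, the median of the 63 members was -0.02, -0.00 and 0.00 in wild-type arrays 1, 2 and 3 and -0.01, 0.26 and -0.16 in mutant arrays 1, 2 and 3. Mutant array 2 was the highest of all 6 arrays for 42 of 63 members, or 66.7%, and for 22.9% of all probe sets tested. Mutant array 3 was the lowest for 33 members, or 52.4%, and for 14.5% of all probe sets tested. Both held at once for 24 members, or 38.1%, against 5.59% of all probe sets tested. The respiratory chain list was near the members, with 56.9% highest in mutant array 2, 48.3% lowest in mutant array 3 and 31% both. For intestine markers these shares were 83.3%, 50% and 50%, and for the cytosolic ribosome 48.2%, 12.7% and 8.18%. These shares describe the arrays and were not tested.

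**Figure D4:**
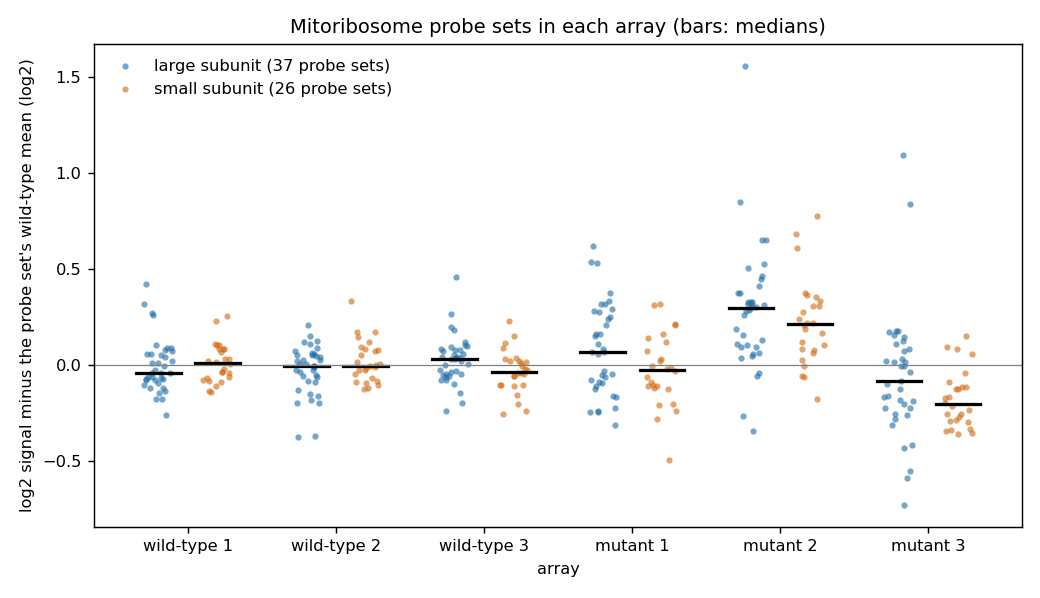
Log2 signal of each tested mitoribosome probe set minus its own wild-type mean, by array, for the large (37) and small (26) subunit, with black bars for medians. The wild-type arrays cluster around 0, mutant array 2 is shifted up (medians 0.30 and 0.21) and mutant array 3 down (medians -0.08 and -0.20).

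Mutant array 2 exceeded mutant array 3 in 58 of 63 members, with a median gap of 0.41 on the log2 scale, while the median gap over all probe sets tested was -0.03. All 26 small-subunit probe sets took part, and the exceptions in the large subunit were mrpl-9, mrpl-10, mrpl-23, the dimmer mrpl-4 probe set and the dimmer mrpl-38 probe set. Of these, mrpl-9 is named after its values were seen. The median array values of the members were 0.27 and -0.30 in mutant arrays 2 and 3 after median centring of the arrays, and 0.27 and -0.19 after quantile normalization, so the order of these arrays held under each scaling. In wild-type the members were tight, with a median SD over 3 arrays of 0.10 on the log2 scale, against 0.23 for all probe sets tested, 0.098 for the respiratory chain and 0.074 for the cytosolic ribosome. In the mutant the median SD was 0.25, against 0.32 for all probe sets tested, 0.20 for the respiratory chain and 0.14 for the cytosolic ribosome. The mutant SD exceeded the wild-type SD in 55 of 63 members, or 87.3%, and in 65.5% of all probe sets tested. The related lists had shares near that of the members, 84.5% for the respiratory chain and 80% for the cytosolic ribosome.

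mrps-14 shows the pattern in single values, at 3073, 3095 and 3607 in wild-type and 2753, 4093 and 2529.7 in the mutant. mrpl-12 and mrps-23 do so too, the latter at 1757, 1719 and 1772 in wild-type and 1646, 1963 and 1645 in the mutant, where the wild-type arrays are nearly equal and mutant array 2 alone lies above them. mrps-23 is named after its values were seen. Because mutant arrays 2 and 3 lay on opposite sides of wild-type, the median over members was 0.11 without mutant array 3 and -0.06 without mutant array 2. Without mutant array 3, 0 members passed an adjusted limma p of 0.05 and 3 had an unadjusted p under 0.05, all higher, where 16% of all probe sets passed the adjusted threshold, 5.96% higher and 10.1% lower. The unadjusted level was met by 31.8% of all probe sets, 15% higher and 16.8% lower. The 3 members were the dimmest mrpl-44 probe set, mrpl-19 and mrpl-15.

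Markers of other tissues also split the mutant arrays. Of 12 tested probe sets for 9 intestine marker genes, 10 were highest in mutant array 2 and 6 lowest in mutant array 3, with array medians of 0.46 and -0.25 there. The summed intestine signal ran from 80711 to 87193 in wild-type and was 80090.4, 107669 and 69813.6 in mutant arrays 1, 2 and 3, with no marker under 225.4. Germline markers ran the other way. The summed signal of 25 germline and oocyte genes was 34789 to 49906 in wild-type and 23524, 15844 and 40959.6 in mutant arrays 1, 2 and 3, and the lowest single value was 63.9. In sperm the lowest single value was 35.4, so no defining marker was at 0. The 5 yolk genes summed to 106726 to 136598 in wild-type and to 71146, 40854.5 and 119697 in the mutant arrays. Summed neuron signal was 7377 to 8952 in wild-type and 8709, 9092 and 9306 in mutant arrays 1, 2 and 3. Summed muscle signal was 58504 to 79014 in wild-type and 56764, 69560.5 and 83231 in the mutant arrays. Mutant array 2 exceeded mutant array 3 in 0 of 17 muscle and 4 of 17 neuron probe sets, against 12 of 12 for intestine. Moulting genes, which mark developmental timing, had array medians of -0.72, 0.23 and 0.44 in wild-type and 2.16, 2.27 and 1.65 in the mutant over 29 probe sets of 17 genes. The part of developmental timing and tissue makeup in the members' values was not tested, and fewer cells of a type and less RNA per cell cannot be told apart in whole animals.

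**Figure D5:**
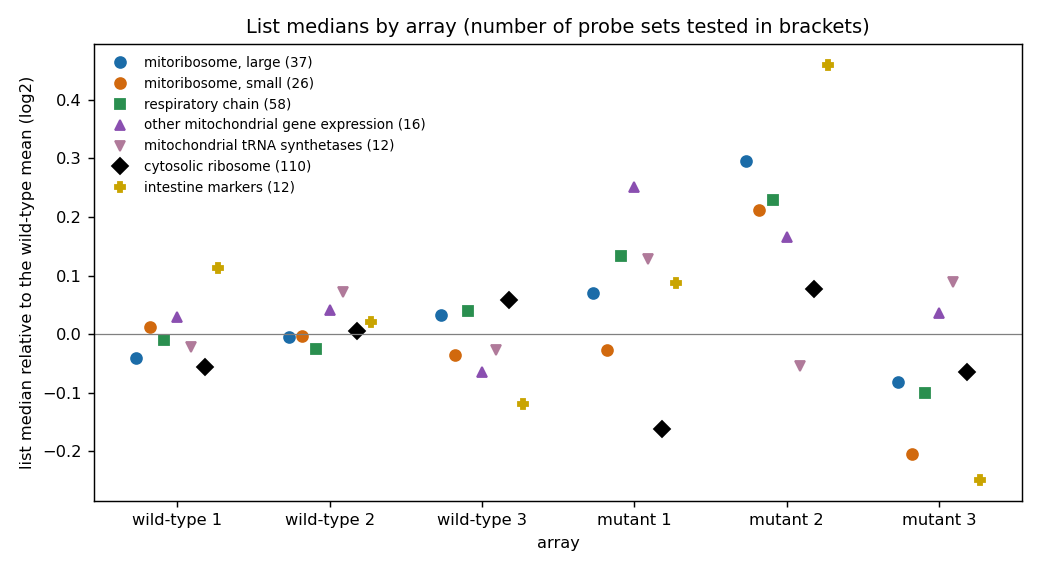
Median log2 value of each gene list relative to wild-type, by array, with the number of probe sets tested in brackets. As deposited, mitoribosome, respiratory chain and intestine marker medians are highest in mutant array 2 and lowest in mutant array 3. The cytosolic ribosome as deposited is lowest in mutant array 1, at -0.16, and stands at 0.13 in that array after quantile normalization.

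Respiratory chain genes, whose mitochondrially encoded partners the mitoribosome makes, had a like order of arrays as deposited. Over 58 tested probe sets of 40 nuclear genes the medians were 0.13, 0.23 and -0.10 in mutant arrays 1, 2 and 3. After quantile normalization they were 0.24, 0.22 and -0.04, so mutant array 1 was then highest. Under that scaling 12.1% of the list was highest in mutant array 2 and lowest in mutant array 3, against 39.7% of the members. As deposited these shares were 31% and 38.1%, and after median centring they were 50% and 44.4%, so the order of the lists depended on scaling. Their median difference was 0.06, with 40 above 0 and 18 below, and 0 passed the adjusted threshold while 4 had an unadjusted limma p under 0.05, 2 in each direction. sdha-1, a catalytic subunit of succinate dehydrogenase, read 1303, 1208 and 1592 in wild-type and 1859, 2230.2 and 1937 in the mutant, a difference of 0.56 ± 0.18 (limma adjusted p = 0.182). On the lower side were ucr-2.3 at -0.79 ± 0.29, nduf-2.2 at -0.57 ± 0.25 and asb-1, the germline form of an ATP synthase subunit, at -0.58 ± 0.22. asb-1 read 2874, 2328 and 2247 in wild-type and 1484, 1375 and 2191 in the mutant, lowest in mutant array 2, the array in which most mitoribosome members were highest. These 3 lower genes passed without mutant array 3 (limma adjusted p = 0.0304, 0.0274 and 0.0267), a setting in which 10.1% of all probe sets tested were called lower. Without mutant array 2 nduf-2.2 stood at -0.35.

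With the main settings, the other machinery of mitochondrial gene expression also passed no adjusted test. Under the alternative settings listed below, tufm-1 and gfm-1 each passed in 1 (lowest limma adjusted p = 0.0330 and 0.0440). Among 16 tested probe sets for 14 genes of mitochondrial DNA upkeep, transcription and translation, 13 were above 0 and 3 below, with a median of 0.11, and 0 had an unadjusted limma p under 0.05. tufm-1, the mitochondrial elongation factor Tu, read 3032, 2869.7 and 3049 in wild-type and 3959, 4907 and 2754 in the mutant, a difference of 0.34 ± 0.22. Its partner tsfm-1 stood at 0.34 ± 0.25, the elongation factor G gene gfm-1 at 0.23 ± 0.19 and the mitochondrial DNA polymerase gene polg-1 at 0.42 ± 0.25. Without mutant array 2 these were 0.15 for tufm-1, 0.12 for tsfm-1 and 0.12 for gfm-1, and without mutant array 3 they were 0.56, 0.60 and 0.40. polg-1 was 0.24 without wild-type array 3. In tufm-1 mutant array 2 was highest and mutant array 3 lowest, but over the list mutant array 2 exceeded mutant array 3 in 7 of 16 probe sets, and the array medians were 0.25, 0.17 and 0.04 in mutant arrays 1, 2 and 3. dap-3 encodes a small-subunit protein that the symbols mrpl- and mrps- leave out, and it is a neighbour of mrps-22. It read 1601, 1595 and 1494 in wild-type and 1730.0, 1967 and 1369.7 in the mutant, a difference of 0.10 ± 0.18, and it is outside the rule for named genes. Genes of the mitochondrial stress response had 24 tested probe sets for 15 genes, 20 above 0 and 4 below, with a median of 0.26 and 0 past the adjusted threshold. Their array medians were 0.42, 0.31 and 0.10 in mutant arrays 1, 2 and 3, highest in mutant array 1.

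Mitochondrial aminoacyl-tRNA synthetases, which charge the tRNAs that the mitoribosome uses, had 12 tested probe sets for 10 genes, 7 above 0 and 5 below, with a median of 0.02 and 0 past the adjusted threshold. iars-2, the isoleucine enzyme, was above wild-type in every mutant array. It read 465, 464 and 423 in wild-type and 555, 658 and 616 in the mutant, a difference of 0.43 ± 0.18 (limma adjusted p = 0.239; unadjusted p = 0.0406). ears-2 gave 0.27 ± 0.19 without overlap, sars-2 0.23 ± 0.18 and lars-2 0.21 ± 0.20. The synthetases were not highest in mutant array 2, where their median was -0.05, against 0.13 and 0.09 in mutant arrays 1 and 3.

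Cytosolic ribosomal proteins, the counterparts that translate nuclear messages, had a direction that depended on scaling. As deposited, of 110 tested probe sets for 75 genes 28 were above 0 and 82 below, with a median of -0.06, and 0 had a limma p under 0.05, adjusted or not. Mutant array 1 was lowest for 76 of the 110, or 69.1%, and for 12.7% of the mitoribosome members. Mutant array 2 exceeded mutant array 3 in 98 of the 110, or 89.1%, as it did in 92.1% of the members, with a median gap of 0.15 against the members' 0.41. The list's array medians were -0.16, 0.08 and -0.07 in mutant arrays 1, 2 and 3 as deposited. After quantile normalization they were 0.13, 0.12 and 0.02, all above the wild-type arrays, so the side of 0 on which the list lay turned. rpl-28 read 18042, 20118 and 21434 in wild-type and 17145, 16404 and 16588 in the mutant, without overlap, a difference of -0.25 ± 0.12 (limma adjusted p = 0.316). rpl-11.1 stood at -0.38 ± 0.17, rpl-24 at -0.14 ± 0.13 and rps-3A at -0.13 ± 0.11. After quantile normalization rpl-24 stood at 0.0016 and rps-3A at 0.07. The difference between the cytosolic and the mitochondrial list was not tested.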

How the data were processed

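The deposited intensity of each probe set is a MAS5 signal, per the submitters' processing notes, which also name Affymetrix Expression Console, with versions and genome build not given in the sources used here. Trimmed by 2% at each end, every array's mean was about 500.2. No scanner files or detection calls were used. Log2 was taken of the signals as given, without an offset. Probe sets whose mean log2 signal reached the 40th percentile of 22548 non-control probe sets, a signal of 68.7, were tested (13529 of a table of 22625 rows, 77 of them controls). The test was limma 3.58.1 (R 4.3.3), empirical Bayes with intensity trend, two-sided, Benjamini-Hochberg over all probe sets tested, threshold 0.05. Platform annotation gave 1 gene for 20766 probe sets, several for 887 and none for 895, and 2 that name a mitoribosomal gene beside another were left out. Suffixes for shared sequence mark 15 of the 63 tested members. Among the genes named from related lists they mark the probe sets of tufm-1, tsfm-1, iars-2, lars-2, asb-1, rpl-11.1 and rpl-24.

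Members and lists were chosen with earlier results of these data known. Named were zip-3, the 12 mitoribosome genes with the highest and the 12 with the lowest moderated statistic (brightest probe set), genes with several probe sets, mrps-5, mrpl-1, mrpl-2 and mrpl-37, and up to 4 genes of each related list. Alternatives were quantile normalization, median centring, an offset of 16, no filter or a 60th percentile filter, empirical Bayes without trend or robust, array weights, a replicate block, leaving out each array, and leaving out shared-sequence probe sets.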

Additional observations from a re-analysis of the deposited data

How the results depend on the processing

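Median differences of the members, the large and the small subunit moved by less than the spread between arrays under all 16 alternatives, ranging from -0.06 to 0.11, -0.00 to 0.11 and -0.10 to 0.12, and their sign near 0 is not stable. Passing members were 0 higher and 0 lower in 15 alternatives. With array weights, which weighted mutant array 1 at 5.89 and mutant array 3 at 0.267, 2 were higher (mrpl-37 at 0.47 and the dimmest mrpl-44 probe set at 0.78) and 1 lower (the brighter mrps-28 probe set at -0.43), beside 2464 higher and 2274 lower probe sets in all. At an unadjusted p under 0.05, array weights gave 8 members higher and 2 lower (3375 and 2898 probe sets in all), the 60th percentile filter 1 higher (773 higher and 812 lower in all), the replicate block 1 higher, and leaving out single arrays 0 to 3 higher and 0 lower. Leaving out shared-sequence probe sets gave 889 higher and 770 lower in all at that level.

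Over all probe sets, adjusted calls numbered 37 higher with the offset and 1 lower with quantile normalization or median centring, and 0 lower with no filter, the 60th percentile filter or robust estimation. Leaving out single arrays gave 0 to 807 higher and 0 to 1360 lower, with calls only when mutant array 3 was left out, and at an unadjusted p 905 to 2032 higher and 546 to 2268 lower. The replicate block gave 0 higher and 0 lower. Of the genes named from related lists, tufm-1, gfm-1, ears-2 and sdha-1 each passed the adjusted threshold in 1 alternative. ucr-2.3, asb-1, nduf-2.2 and rpl-11.1 each passed in 2. Same-numbered arrays deviated together at correlations of 0.02, 0.05 and -0.16, so the replicate numbers were not taken as pairs.

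Signs turned for these genes under single alternatives, among them mrpl-24 and mrpl-30 from the lower end of the members. mrpl-1 was -0.013 with quantile normalization, -0.057 with median centring and -0.053 with array weights, and mrpl-2 was -0.030 with median centring and -0.10 with array weights. Array weights also gave -0.057 for the dimmer mrpl-4 and 0.085 for the intermediate mrpl-44 probe set. Quantile normalization gave 0.066 for rps-3A and 0.0016 for rpl-24. Leaving out single arrays gave -0.14 to 0.10 for mrpl-1, -0.15 to 0.12 for mrpl-2, -0.39 to 0.0053 for mrpl-24, -0.32 to 0.0052 for mrpl-30, -0.27 to 0.092 for the intermediate mrpl-44 probe set, -0.30 to 0.047 for mrps-14, -0.16 to 0.015 for the dimmer mrps-16 probe set, -0.26 to 0.034 for mrps-18C and -0.022 to 0.24 for dap-3. The cause was not tested. With 3 arrays per genotype, the median standard error of a member was 0.19 on the log2 scale.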
